A study of Mus musculus with 6 samples.

Results

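Amino acid and neurotransmitter transporter genes of the Slc1, Slc3, Slc6, Slc7, Slc36, Slc38 and Slc43 families were examined in NIH3T3 cells, a line of mouse embryo fibroblasts. The members were taken by gene symbol, every row named Slc1a, Slc6a, Slc7a, Slc36a, Slc38a or Slc43a with a number, together with Slc3a1 and Slc3a2. This gave 60 of the 35275 genes in the count table, namely 7 Slc1, 2 Slc3, 18 Slc6, 15 Slc7, 4 Slc36, 11 Slc38 and 3 Slc43 genes. RNA was sequenced from 3 libraries labelled NgBR overexpression and from 3 libraries of wild-type NIH3T3 cells. Per the labels' protocols, the overexpressing line was made by stable transfection with an HA-tagged NgBR plasmid and G418 selection, and both lines were grown in DMEM with calf serum. No transgene promoter, number of clones, passage or vector-only control is given for these 6 libraries. Nus1 encodes NgBR, a receptor of Nogo-B. Whether the 3 libraries of a group stem from separate cultures is not stated, and the p-values cover only the spread among libraries, which may be technical.

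Mammalian cells take up amino acids through carriers that differ in substrate and driving force. Slc1, Slc6 and most Slc38 carriers couple uptake to sodium, Slc7 light chains exchange amino acids and several of them reach the cell surface only in a disulfide-linked pair with the heavy chain Slc3a2, and Slc36 carriers move amino acids with protons, often out of lysosomes. In the nervous system, Slc1 and Slc6 carriers clear glutamate, glycine, GABA and monoamines from synapses. When amino acids run short or the endoplasmic reticulum is stressed, the transcription factor ATF4 induces many carriers together with enzymes of amino acid synthesis and tRNA charging, and it binds elements of the form TGATGNAA with C/EBP partners.

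The promoters of 3 carriers are shown because the levels of these genes stood apart in one of the libraries described below. They are RefSeq sequences on GRCm38.p6, the mm10 assembly, 5′ to 3′ on the strand of the gene, and capitals mark TGATGNAA on either strand.
Slc7a11 (chr3:50443614-50443863, minus strand, the 250 bases before the start): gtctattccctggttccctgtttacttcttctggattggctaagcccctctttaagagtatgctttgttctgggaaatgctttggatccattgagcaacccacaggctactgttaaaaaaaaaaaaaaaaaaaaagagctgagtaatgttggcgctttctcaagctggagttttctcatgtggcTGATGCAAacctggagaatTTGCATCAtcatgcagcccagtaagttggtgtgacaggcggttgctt
Slc1a4 (chr11:20332710-20332963, minus strand, the 250 bases before the start and the first 4 bases after it): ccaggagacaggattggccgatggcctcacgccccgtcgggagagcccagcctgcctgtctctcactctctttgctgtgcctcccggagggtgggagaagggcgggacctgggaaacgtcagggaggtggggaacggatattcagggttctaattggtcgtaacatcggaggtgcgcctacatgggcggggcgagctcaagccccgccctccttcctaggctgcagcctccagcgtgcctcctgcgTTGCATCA
Slc3a2 (chr19:8713898-8714147, minus strand, the 250 bases before the RefSeq start in the table used): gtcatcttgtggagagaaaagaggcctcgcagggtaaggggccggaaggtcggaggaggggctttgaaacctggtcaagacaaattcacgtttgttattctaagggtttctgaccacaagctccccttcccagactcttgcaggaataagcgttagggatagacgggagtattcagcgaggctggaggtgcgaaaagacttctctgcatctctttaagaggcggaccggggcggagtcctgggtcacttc

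Slc7a11 holds 2 matches on opposite strands, the first base of each lying 66 and 47 bases before the start. Slc1a4 holds 1 match across its start, and Slc3a2 holds none in this window. The Slc3a2 window lies inside the gene as annotated (8706882 to 8723369, minus strand), so the bases before the annotated gene start were not searched. Promoter windows of 300 bases, 250 before and 50 after each start, were available for 42 of the 60 members, and 3 of these 42 genes held a match (7.14%), the other one being Slc7a7. Of all 27025 genes with a window, 4.51% held a match. Of the 27 amino acid response genes with a window, 9 held one (33.3%). A match is a run of letters and was not examined as a binding site.

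The labelled libraries held 7369961, 10358381 and 10082223 counts and the wild-type libraries 35511769, 29515072 and 32196873. A single count was worth between 0.0956 and 0.140 CPM in the labelled libraries and between 0.0286 and 0.0338 CPM in wild type. Counts given below as totals over a group are not scaled to this depth, and their sizes do not compare the groups. Nus1, the check of the labels, averaged 178 ± 11 CPM in the labelled libraries and 211 ± 22.8 CPM in wild type (SD, n = 3 each; edgeR adjusted p = 0.786). Every labelled library was below every wild-type library in Nus1, as in 9.37% of all tested genes. The Nus1 row thus did not bear out the label, and whether plasmid transcripts count towards it was not tested. All directions below are those of libraries as labelled. Of 10 fibroblast markers, 10 were tested, and their summed level was 21730 to 32660 CPM in the labelled libraries and 21370 to 25530 CPM in wild type. Summed epithelial, endothelial and leukocyte markers stayed at or below 5.15 CPM in each of the 6 libraries. Of 10 neuron markers 4 were tested, and their summed level was 10.4 to 25.7 CPM in the labelled libraries and 7.85 to 10.6 CPM in wild type. Of these marker lists, edgeR called 1 gene, the neuron marker Syt1, higher. Syt1 had few counts, 5, 6 and 6 in labelled libraries 1 to 3 and 0, 2 and 0 in wild type 1 to 3. The neuron marker Gap43, below the filter, went the other way without overlap, at 0.0319 CPM on average in the labelled libraries and 0.515 CPM in wild type. DESeq2 called 3 neuron markers higher and 1 fibroblast marker lower. Over all tested genes edgeR called 429 of 12651 (3.39%). DESeq2 called 715 of 21019 (3.4%), without edgeR's filter on low counts, so the 2 shares have unlike bases. Among the fibroblast markers, Dcn averaged 332 CPM in the labelled libraries and 813 CPM in wild type (log2 fold change -1.29, edgeR adjusted p = 0.118). Every labelled library was below every wild-type library in Dcn and Pdgfra, and above in Col1a1. Mitochondrially encoded genes took 0.383% to 0.839% of the counts in the labelled libraries and 0.651% to 1.41% in wild type. Wild-type library 2 stood apart from wild-type libraries 1 and 3 in many of the carriers, so that fold changes are given with and without it. Labelled library 2 was high in Slc1a4, Slc7a2 and Slc38a2, and leaving out both libraries numbered 2 is given where it changed a call.

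Of the 60 members, 12 had 0 counts in all 6 libraries, 20 had between 1 and 59 counts in all and were below the filter on low counts, and 28 were tested. The 28 include 5 of 18 Slc6 genes, 7 of 15 Slc7 genes, 3 of 7 Slc1 genes, 7 of 11 Slc38 genes, all 3 Slc43 genes, 2 of 4 Slc36 genes and Slc3a2. edgeR's quasi-likelihood test called 1 member lower, Slc6a15, and 0 higher, and DESeq2 and limma-voom gave the same counts. DESeq2 gave no adjusted p for Slc6a9 and Slc7a11, so its count does not cover them. At an unadjusted p under 0.05 edgeR had 5 members, against 11.4% of all tested genes. Over all 12651 tested genes, 3.39% were called, 2.04% higher and 1.35% lower, so that the share of members called was close to the background. The median log2 fold change of the tested members was -0.34, against -0.01 for all tested genes, with 5 positive and 23 negative. Without wild-type library 2 the median was -0.05, with 12 positive and 15 negative among 27 tested members.

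**Figure D1:**
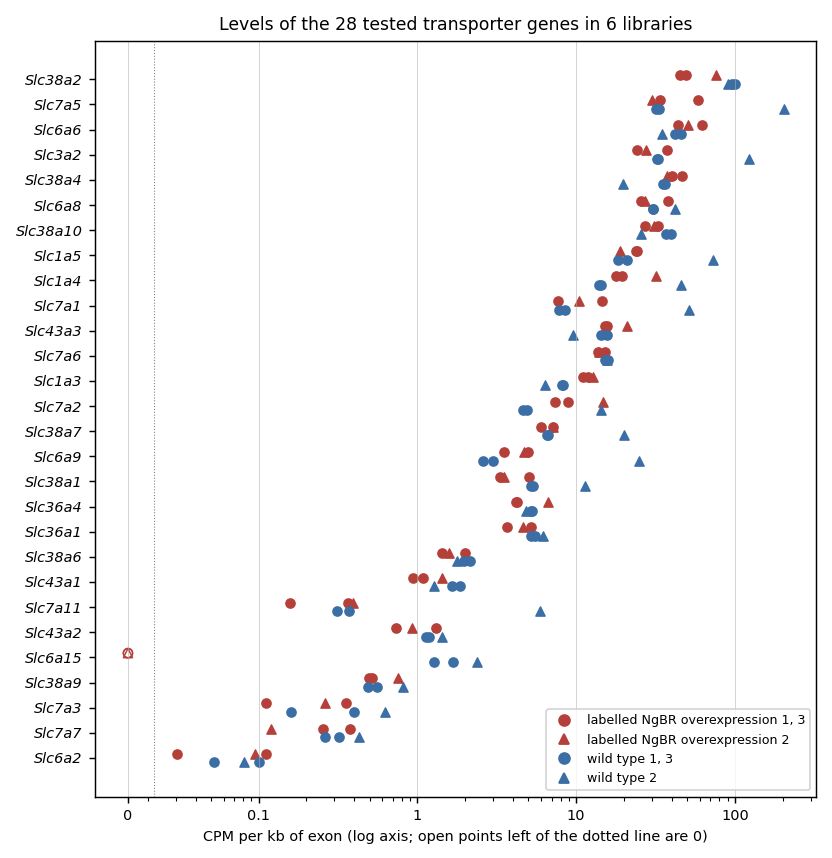
Levels of the 28 tested members as CPM per kb of exon on a log axis, with a point per library, libraries labelled NgBR overexpression in red above wild type in blue, and libraries numbered 2 as triangles. Slc38a2 is at the top at 56.9 and 95.8 CPM per kb on average in labelled and wild-type libraries, Slc6a15 is at 0 in the labelled libraries, and the wild-type triangle lies far to the right for Slc7a5, Slc3a2, Slc7a1, Slc6a9 and Slc7a11.

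Per kb of exon, Slc38a2, the sodium-coupled neutral amino acid carrier SNAT2, ranked first in both groups, with 56.9 ± 17.3 CPM per kb in the labelled libraries and 95.8 ± 5.03 CPM per kb in wild type (SD, n = 3 each). In the labelled libraries it was followed by the taurine carrier Slc6a6 with 52.1 ± 9.17 CPM per kb, Slc38a4 with 41.2 ± 4.66 CPM per kb and the LAT1 light chain Slc7a5 with 40.7 ± 15.4 CPM per kb. The ranges of these 4 neighbours overlapped over the libraries. In wild type the next ranks were those of Slc7a5, with 89.5 ± 98.3 CPM per kb, and Slc3a2, with 62.9 ± 52.5 CPM per kb, and both means rested on library 2. In wild-type libraries 1 and 3, Slc7a5 stood at 32.1 and 33.4 CPM per kb and Slc3a2 at 32.4 and 32.9 CPM per kb. At the low end, Slc6a2, the noradrenaline carrier, had 0.0788 ± 0.0428 CPM per kb in the labelled libraries and 0.0778 ± 0.0239 CPM per kb in wild type.

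The member with the clearest difference was Slc6a15, which encodes B0AT2, a sodium-coupled carrier of branched-chain amino acids and proline described mainly in brain. Slc6a15 (ENSMUSG00000019894, mm10 chromosome 10, 103367783 to 103419377, plus strand, protein-coding, 12 merged exonic blocks) had 0 counts in each of the 3 labelled libraries and 342, 544 and 429 counts in wild-type libraries 1 to 3. As levels, wild-type libraries 1 to 3 stood at 9.79, 18.4 and 12.9 CPM. The groups did not overlap, and no labelled library had a count. Against 3 counts over the labelled group, or 0.108 CPM, Slc6a15 was at least 126-fold lower in the labelled libraries than the wild-type mean of 13.7 ± 4.36 CPM (SD, n = 3; edgeR adjusted p = 0.000855). Its adjusted p ranged from 6.92e-12 with DESeq2 to 0.00684 without labelled library 1 over the alternatives, and it was called in each of them. That Slc6a15 had 0 counts in a group was known when the members were chosen, and it passed the filter only through wild type. These p-values are therefore no independent support for the difference. In bulk RNA, fewer cells that express a gene and less RNA per cell cannot be told apart.

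The genes around Slc6a15 were mostly silent in both lines. Of 15 other counted genes within 1 Mb of it, 11 had 0 counts in all 6 libraries. Its nearest counted upstream neighbour, Lrriq1, had 0 counts in each library. Rassf9, the neighbour that could be tested, had 0.982, 1.29 and 0.669 CPM in labelled libraries 1 to 3 and 0.974, 0.846 and 1.48 CPM in wild type 1 to 3, and the groups overlapped (log2 fold change -0.17, edgeR adjusted p = 0.956).

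**Figure D2:**
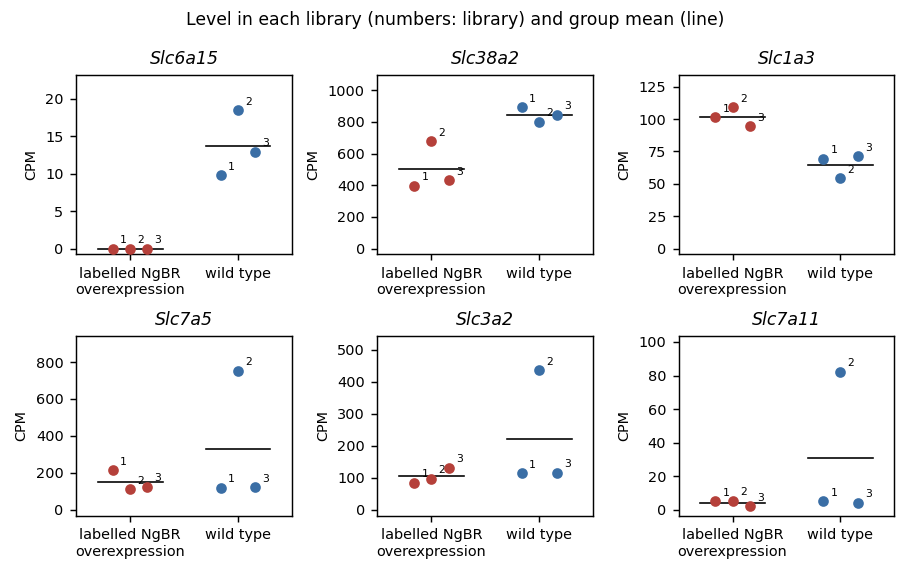
CPM of 6 members in each library, labelled NgBR overexpression on the left and wild type on the right, with the library number beside each point and the group mean as a line. Slc6a15 is at 0 in the labelled libraries, Slc38a2 is lower and Slc1a3 higher in every labelled library than in every wild-type library, and Slc7a5, Slc3a2 and Slc7a11 have a single high value, in wild-type library 2.

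Among the Slc1 carriers, Slc1a3, the glutamate and aspartate carrier GLAST of astrocytes that is also expressed outside the brain, stood at 102, 109 and 94.6 CPM in labelled libraries 1 to 3 and at 69.2, 54.3 and 71.1 CPM in wild type 1 to 3. Every labelled library was above every wild-type library. Its log2 fold change was 0.65 (SE 0.21, 95% interval 0.18 to 1.12) and did not pass the adjusted threshold (edgeR adjusted p = 0.193). Of 10 astrocyte and glia markers, Slc1a3 among them, 3 were tested and 0 called by edgeR (2 at an unadjusted p under 0.05, and DESeq2 called 1). Without Slc1a3, the summed level of the other 9 was 4.20 to 7.42 CPM in the labelled libraries and 3.04 to 3.44 CPM in wild type, with every labelled library above every wild-type library. The myelin gene Mbp stood at 3.37, 2.67 and 1.72 CPM in labelled libraries 1 to 3 and at 1.06, 0.541 and 0.963 CPM in wild type 1 to 3, also without overlap (log2 fold change 1.57, edgeR adjusted p = 0.117). S100b was below the filter, with 1, 4 and 1 counts in labelled libraries 1 to 3 and 3, 1 and 1 in wild type 1 to 3. Its levels were 0.0956 to 0.396 CPM in the labelled libraries and 0.0301 to 0.0859 CPM in wild type. A single labelled count, worth at least 0.0956 CPM, exceeds the highest wild-type value, so its lack of overlap cannot be told from depth. The astrocyte gene Gfap stood at 0.140 to 0.297 CPM in the labelled libraries and 0.15 to 0.305 CPM in wild type, and Aqp4 had 0 counts in each library. The part of such cells in the level of Slc1a3 was not tested. Slc1a2, the main glutamate carrier of forebrain astrocytes, had 21 counts over the labelled libraries and 38 over the deeper wild-type libraries. As levels, Slc1a2 averaged 0.700 ± 0.632 CPM in the labelled libraries and 0.389 ± 0.0245 CPM in wild type, and the groups overlapped. The neuronal glutamate carriers Slc1a1 and Slc1a6 had 0 counts in each library. Slc1a7 had 11 counts over the labelled libraries and 29 over wild type, or 0.358 and 0.322 CPM on average.

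The family also holds 2 exchangers of neutral amino acids. Slc1a4, the exchanger ASCT1 of alanine, serine and cysteine, stood at 76.9, 125 and 70.2 CPM in labelled libraries 1 to 3 and at 56.6, 179 and 54.5 CPM in wild type 1 to 3. Slc1a5, the glutamine exchanger ASCT2, stood at 101, 79.0 and 99.4 CPM in the labelled libraries and at 77.1, 305 and 87.1 CPM in wild type. For both genes wild-type library 2 was the highest of the 6 libraries, and the groups overlapped. The log2 fold change of Slc1a4 was -0.09 (95% interval -1.14 to 0.96) with all libraries and 0.71 (0.03 to 1.39) without wild-type library 2, where edgeR's adjusted p was 0.416. That of Slc1a5 was -0.75 (95% interval -1.84 to 0.35) and 0.18 (-0.31 to 0.67) in the same order.

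Monoamine and GABA carriers of the Slc6 family had few or 0 counts. Slc6a11, which carries GABA, Slc6a3, the dopamine carrier, and the epithelial carriers Slc6a18 and Slc6a19 had 0 counts in all 6 libraries, which allows up to 0.0239 CPM over the series. Slc6a4, the serotonin carrier, had 4 counts over the labelled libraries and 24 over wild type. Slc6a12, a carrier of betaine and GABA, had 13 counts over the labelled libraries, 6 of them in library 1 and 7 in library 3, and 5 over wild type. The remaining low members of the family, Slc6a5, Slc6a7, Slc6a13, Slc6a14, Slc6a16 and Slc6a17, had between 0 and 5 counts over the labelled libraries and between 1 and 7 over wild type. Slc6a2 was tested at 0.495 ± 0.269 CPM in the labelled libraries and 0.490 ± 0.15 CPM in wild type, with a log2 fold change of -0.03 (95% interval -1.38 to 1.32).

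The abundant Slc6 carriers were those of osmolytes, creatine and glycine. Slc6a6, the taurine carrier, stood at 524, 427 and 370 CPM in labelled libraries 1 to 3 and at 357, 295 and 385 CPM in wild type 1 to 3, with overlapping groups (log2 fold change 0.35, SE 0.25, edgeR adjusted p = 0.719). Slc6a8, the creatine carrier, averaged 157 ± 34.4 CPM in the labelled libraries and 180 ± 34.5 CPM in wild type (SD, n = 3 each; log2 fold change -0.19, edgeR adjusted p = 0.883). Slc6a9, the glycine carrier GlyT1, stood at 25.5, 24 and 18 CPM in the labelled libraries and at 15.5, 129 and 13.4 CPM in wild type. The labelled libraries were thus above wild-type libraries 1 and 3 and far below library 2. Its log2 fold change was -1.23 (95% interval -2.96 to 0.51) with all libraries and 0.64 (0.07 to 1.21) without wild-type library 2 (edgeR adjusted p = 0.647 and 0.352). Exons of Slc6a9 overlap those of Ccdc24 on the opposite strand over 1429 bases, a gene at 0 CPM on average in the labelled libraries and 0.382 CPM in wild type. They also overlap those of B4galt2 on the opposite strand over 46 bases, a gene at 79 CPM in the labelled libraries and 87.8 CPM in wild type, so that some reads cannot be assigned without strand.

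Slc3a2 encodes the heavy chain 4F2hc, or CD98, which partners the light chains Slc7a5, Slc7a6, Slc7a7, Slc7a8, Slc7a10 and Slc7a11. Slc3a2 (mm10 chromosome 19, 8706882 to 8723369, minus strand) stood at 84.8, 97.5 and 132 CPM in labelled libraries 1 to 3 and at 114, 436 and 116 CPM in wild type 1 to 3. Wild-type library 2 was the highest, and the other 5 libraries lay within a narrow band. For Slc3a2 the log2 fold change was -1.08 (95% interval -2.22 to 0.06) with all libraries and -0.13 (-0.70 to 0.43) without wild-type library 2 (edgeR adjusted p = 0.464 and 0.935). The other heavy chain is Slc3a1, or rBAT of kidney and intestine. Slc3a1 had 7 counts over the labelled libraries and 20 over wild type (0.283 and 0.205 CPM on average). Its light chains Slc7a9 and Slc7a13 had 0 and 3 counts over the labelled libraries and 1 and 0 over wild type.

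Of the light chains of Slc3a2, Slc7a5 and Slc7a11 followed the heavy chain in wild-type library 2. Slc7a5 (mm10 chromosome 8, 121881150 to 121907694, minus strand), the LAT1 exchanger of large neutral amino acids, stood at 216, 111 and 126 CPM in labelled libraries 1 to 3 and at 119, 753 and 124 CPM in wild type 1 to 3. Slc7a11 (mm10 chromosome 3, 49892526 to 50443614, minus strand), the xCT exchanger that imports cystine against glutamate for glutathione synthesis, stood at 5.05, 5.44 and 2.20 CPM in the labelled libraries and at 5.18, 82.4 and 4.37 CPM in wild type. Its log2 ratio of wild-type library 2 to the mean of libraries 1 and 3, on CPM plus 0.5, was 3.97. This ratio was the highest among the tested members. Slc7a11 is the carrier shown above with a pair of TGATGNAA matches. The same ratio was 1.68 for Slc1a4 and 0.39 for Slc7a7, which also held matches. It was 1.92 for Slc3a2, which held none in its window, one that lies inside the annotated gene. The part of the matches in these levels was not tested. The log2 fold change of Slc7a11 was -2.86 (95% interval -5.29 to -0.44, edgeR adjusted p = 0.306) with all libraries and -0.18 (-1.13 to 0.77) without wild-type library 2. With no filter on low counts it was called lower (edgeR adjusted p = 0.00682).

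Slc7a6, the y+LAT2 exchanger of cationic and neutral amino acids, did not share this pattern. It stood at 69.3, 63.9 and 62.4 CPM in labelled libraries 1 to 3 and at 69.2, 71.7 and 72.1 CPM in wild type 1 to 3. Its log2 fold change was -0.12, with a 95% interval of -0.55 to 0.31, the narrowest among the tested members. Slc7a7, the y+LAT1 light chain of epithelia, averaged 0.827 ± 0.423 CPM in the labelled libraries and 1.12 ± 0.279 CPM in wild type, and its exons overlap those of Oxa1l on the opposite strand over 232 bases, a gene at 52.5 and 51.5 CPM, so that its few counts are uncertain without strand. Slc7a8, the LAT2 light chain, had 1 count over the labelled libraries and 6 over wild type. Slc7a10 had 0 counts in each library, as had Slc7a4, Slc7a12 and Slc7a14, while Slc7a15 had 10 counts over the labelled libraries and 8 over wild type.

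The cationic amino acid carriers of the Slc7 family, which bring in arginine and lysine without a heavy chain, split by gene. Slc7a1, the widely expressed carrier CAT1, stood at 168, 120 and 89.0 CPM in labelled libraries 1 to 3 and at 98.5, 592 and 90.5 CPM in wild type 1 to 3. Slc7a2, the carrier CAT2, stood at 66.8, 135 and 80.8 CPM in the labelled libraries and at 44.9, 132 and 42.0 CPM in wild type. For Slc7a1 wild-type library 2 was alone at the top, whereas for Slc7a2 both libraries numbered 2 were high and all 3 labelled libraries were above wild-type libraries 1 and 3. The log2 fold change of Slc7a2 was 0.37 (95% interval -0.67 to 1.41) with all libraries and 1.12 (0.36 to 1.88) without wild-type library 2 (edgeR adjusted p = 0.873 and 0.178). Slc7a3 averaged 0.916 ± 0.463 CPM in the labelled libraries and 1.50 ± 0.883 CPM in wild type.

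**Figure D3:**
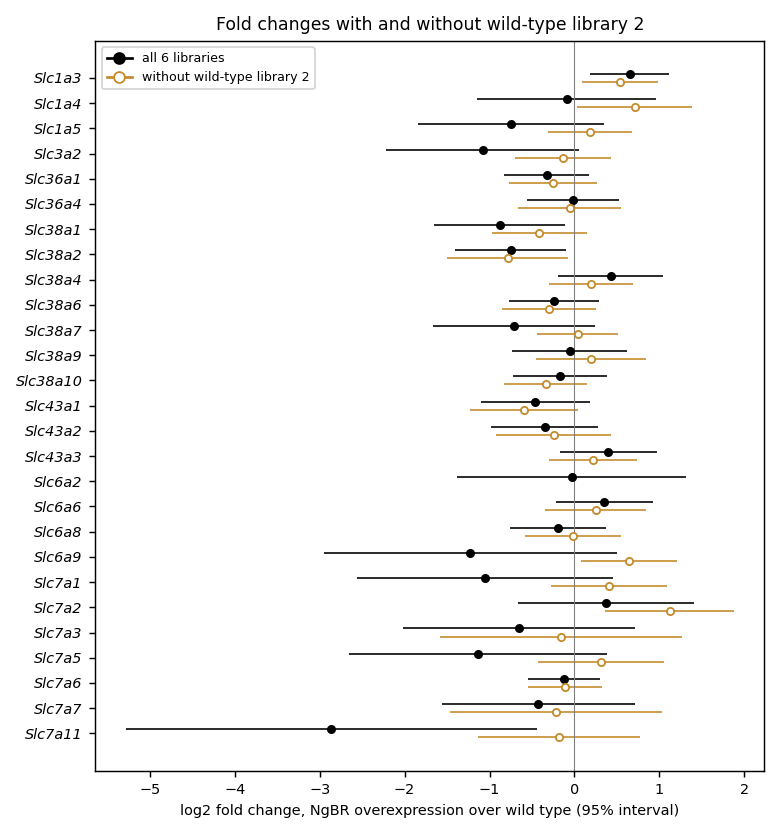
Log2 fold changes, labelled over wild-type libraries, with 95% intervals for 27 tested members, Slc6a15 left out as a gene with 0 counts in a group. Filled black points use all 6 libraries and open orange points leave out wild-type library 2, without which Slc6a2 was below the filter. Slc7a11, Slc6a9, Slc7a5, Slc3a2 and Slc7a1 have wide intervals with all libraries and lie near or above 0 without that library.

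Among the Slc38 carriers, Slc38a2 (mm10 chromosome 15, 96687392 to 96699730, minus strand) is the system A carrier that cells raise when starved of amino acids. It stood at 397, 678 and 434 CPM in labelled libraries 1 to 3 and at 892, 803 and 845 CPM in wild type 1 to 3. Every labelled library was below every wild-type library, and wild-type library 2 was not the high one. Its log2 fold change was -0.75 (SE 0.29, 95% interval -1.41 to -0.10) and did not pass the adjusted threshold (edgeR adjusted p = 0.323). It was -1.07 and called when both libraries numbered 2 were left out (edgeR adjusted p = 0.0349).

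Slc38a1, the SNAT1 carrier of glutamine, lies 44.5 kb from Slc38a2 on the same strand. It stood at 87.4, 60.4 and 57.1 CPM in labelled libraries 1 to 3 and at 92.4, 196 and 89.3 CPM in wild type 1 to 3, again with every labelled library below every wild-type library. Its log2 fold change was -0.88 (SE 0.34, edgeR adjusted p = 0.331) with all libraries and -0.41 (edgeR adjusted p = 0.669) without wild-type library 2. Slc38a4, a carrier that is imprinted in mouse and abundant in placenta and liver, stood at 197, 158 and 171 CPM in the labelled libraries and at 151, 84.5 and 156 CPM in wild type. Its labelled libraries were all above wild type, and the log2 fold change was 0.43 (SE 0.27) with all libraries and 0.20 without wild-type library 2 (edgeR adjusted p = 0.66 and 0.875).

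The carriers of lysosomal membranes were not called. Slc38a9, the arginine sensor of the lysosome that signals to mTORC1, averaged 9.88 ± 2.42 CPM in the labelled libraries and 10.3 ± 2.88 CPM in wild type (SD, n = 3 each; log2 fold change -0.06, 95% interval -0.73 to 0.62). Slc38a7, which exports glutamine from lysosomes, stood at 29.5, 29.6 and 24.8 CPM in the labelled libraries and at 27, 82.7 and 27.6 CPM in wild type. Slc36a1, the proton-coupled carrier PAT1, stood at 29.1, 26 and 20.7 CPM in the labelled libraries and at 30.8, 34.8 and 29.4 CPM in wild type, with every labelled library lower (log2 fold change -0.33, edgeR adjusted p = 0.683). Slc36a4 averaged 32.9 ± 9.02 CPM in the labelled libraries and 33.4 ± 1.51 CPM in wild type. Slc36a2 and Slc36a3, which lie beside Slc36a1 on chromosome 11, had 0 and 0 counts over the labelled libraries and 7 and 0 over wild type.

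Slc38a10 averaged 194 ± 17.6 CPM in the labelled libraries and 219 ± 47.6 CPM in wild type, and Slc38a6 12.9 ± 2.27 and 15.3 ± 1.35 CPM (SD, n = 3 each; edgeR adjusted p = 0.897 and 0.821). Slc38a3, Slc38a5, Slc38a8 and Slc38a11 had 0 counts over the labelled libraries and 1 count each over wild type. In the Slc43 family, Slc43a1 and Slc43a2, the facilitated carriers LAT3 and LAT4 of large neutral amino acids, averaged 6.58 ± 1.48 and 9.90 ± 2.89 CPM in the labelled libraries and 9.09 ± 1.70 and 12.6 ± 1.60 CPM in wild type. Slc43a3, which is known as a purine nucleobase carrier rather than an amino acid carrier, averaged 77.3 ± 14.0 CPM in the labelled libraries and 58.6 ± 14.2 CPM in wild type. None of these 3 was called (edgeR adjusted p = 0.644, 0.754 and 0.656), and the 3 groups of values overlapped.

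Counted over the tested members, 2 had every labelled library above every wild-type library, Slc1a3 and Slc38a4, and 4 had every labelled library below, Slc6a15, Slc38a1, Slc38a2 and Slc36a1. Over all tested genes 9.21% lay above and 9.37% below without overlap. With 28 members, these shares correspond to counts close to those found.

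Many of the members shared a high level in wild-type library 2. On CPM plus 0.5, 10 of the 28 tested members (35.7%) were more than 2-fold higher in wild-type library 2 than the mean of wild-type libraries 1 and 3, against 4.32% of all tested genes. They were Slc7a11, Slc6a9, Slc7a1, Slc7a5, Slc3a2, Slc1a5, Slc1a4, Slc7a2, Slc38a7 and Slc38a1, with log2 ratios from 1.10 to 3.97. Wild-type library 2 was the highest of the 6 libraries for 16 of the 28 (57.1%), against 25% of all tested genes. Summed over the Slc7 family, the level was 527, 437 and 364 CPM in labelled libraries 1 to 3 and 340, 1635 and 335 CPM in wild type 1 to 3 (this sum compares libraries and is not scaled to length). Since it concerns 1 library, no test between conditions applies, and these values describe that library.

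**Figure D4:**
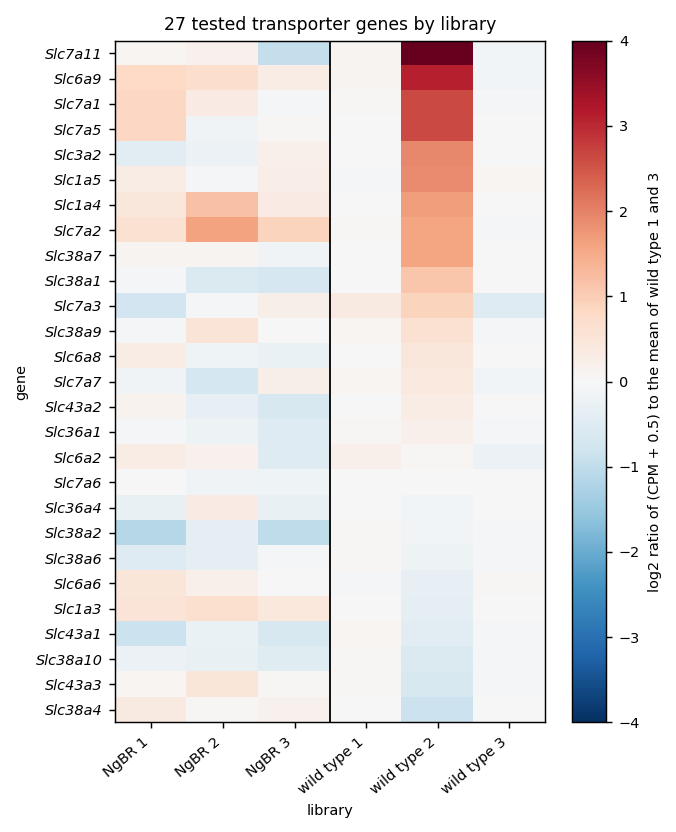
Log2 ratio of CPM plus 0.5 in each library to the mean of wild-type libraries 1 and 3, for 27 tested members ordered by wild-type library 2, with the 3 labelled libraries on the left and Slc6a15 left out. The top 10 genes are above a ratio of 2-fold in wild-type library 2, with Slc7a11 highest at 3.97, and Slc7a2 and Slc1a4 are also high in labelled library 2.

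The amino acid response list, 32 targets of ATF4 and C/EBP factors that were listed with earlier results of these data known, had the same high library. Of 31 tested genes, 27 (87.1%) were more than 2-fold higher in wild-type library 2 than in the mean of wild-type libraries 1 and 3, with a median log2 ratio of 1.43, against -0.03 for all tested genes and 0.42 for the carriers. Its summed level was 4135, 3469 and 4058 CPM in labelled libraries 1 to 3 and 3610, 9300 and 3594 CPM in wild type 1 to 3. Trib3, a pseudokinase, stood at 21.3, 20.3 and 26.8 CPM in labelled libraries 1 to 3 and at 8.16, 159 and 7.07 CPM in wild type 1 to 3. Chac1, an enzyme that degrades glutathione, stood at 6.32, 8.41 and 11.8 CPM in the labelled libraries and at 8.10, 79.0 and 7.04 CPM in wild type. Asns, asparagine synthetase, stood at 155, 122 and 128 CPM in the labelled libraries and at 143, 523 and 132 CPM in wild type.

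Between the groups, 0 of the 31 response genes were called by edgeR, 3 had an unadjusted p under 0.05, and limma-voom called 0. DESeq2 called 0 of the 29 for which it gave a p-value. In 2 genes, Atf3 and Gars, every labelled library was below every wild-type library, and in 0 above. Over all tested genes these shares were 9.37% and 9.21%. Atf3 stood at 1.34 to 1.54 CPM in the labelled libraries and at 5.4, 47.0 and 6.1 CPM in wild type 1 to 3 (log2 fold change -3.78, edgeR adjusted p = 0.0563). The median log2 fold change of the list was -0.70 with all libraries, with 3 positive and 28 negative. It was 0.07 without wild-type library 2, with 19 positive, 12 negative, 1 called higher and 1 called lower. The part of this response in the levels of the carriers was not tested.

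**Figure D5:**
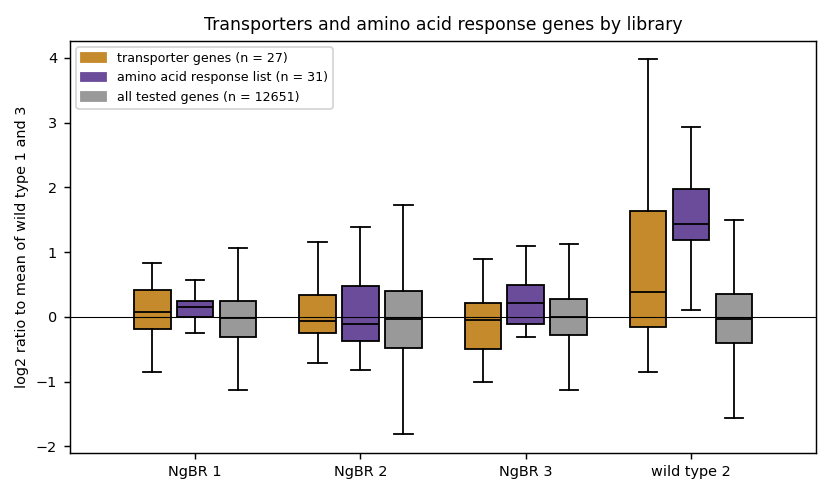
Log2 ratio of CPM plus 0.5 in the 3 labelled libraries and wild-type library 2 to the mean of wild-type libraries 1 and 3, for 27 tested transporter genes (without Slc6a15), 31 amino acid response genes and all 12651 tested genes, as medians, quartiles and whiskers of up to 1.5 quartile ranges with points beyond them not drawn. In wild-type library 2 the response genes have a median of 1.43 while all genes are near 0, and in the labelled libraries the 3 boxes lie around 0.

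Other genes of amino acid handling were mostly not called. Of 32 tested genes of amino acid sensing and mTORC1, 1 was called lower, Rragd, the RagD GTPase, at 1.12, 1.58 and 1.43 CPM in labelled libraries 1 to 3 and 4.87, 9 and 4.94 CPM in wild type 1 to 3 (log2 fold change -2.16, SE 0.38, edgeR adjusted p = 0.0154). Of 14 tested genes of glutamine and glutamate metabolism, 1 was called higher, Gls2, the liver-type glutaminase, at 4.77, 10.8 and 6.78 CPM in the labelled libraries and 2.61, 1.49 and 2.17 CPM in wild type (log2 fold change 1.84, SE 0.38, edgeR adjusted p = 0.0331). Of 10 tested vesicular and other amino acid or amine carriers, 1 was called higher, Slc22a4, the ergothioneine carrier, at 2.81, 5.15 and 2.77 CPM in the labelled libraries and 0.630, 0.778 and 0.753 CPM in wild type (log2 fold change 2.31, SE 0.40, edgeR adjusted p = 0.0143). In each of these 3 genes the groups did not overlap.

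With single libraries left out, these calls were lost in some fits while the log2 fold changes kept their sign. Rragd was not called without labelled library 1 or 3 (log2 fold change -2.06 and -2.19, edgeR adjusted p = 0.0862 and 0.0677). Slc22a4 lost its call when wild-type library 1 or 3 was left out (2.23 and 2.34, edgeR adjusted p = 0.0756 and 0.0545). Gls2 was not called without labelled library 2 or 3 or wild-type library 1, 2 or 3 (1.47, 1.91, 2.04, 1.65 and 1.86, edgeR adjusted p = 0.0921, 0.0829, 0.0686, 0.0959 and 0.0972). Without both libraries numbered 2 it was not called either (log2 fold change 1.29, edgeR adjusted p = 0.0622). edgeR called 0 of 10 mitochondrial amino acid carriers, 0 of 14 glutathione genes and 0 of 6 sodium pump subunits, with 0, 1 and 2 genes at an unadjusted p under 0.05. DESeq2 called 0, 0 and 1 of these, and limma-voom 0 of each. In the vesicular list limma-voom called 1 gene lower beside Slc22a4. The median log2 fold changes of the sensing, glutamine, vesicular, mitochondrial, glutathione and sodium pump lists were -0.02, -0.03, -0.16, -0.12, -0.02 and 0.18, against -0.01 for all tested genes.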

How the data were processed

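Per the labels, 6 RNA-seq libraries were analysed, 3 labelled NgBR overexpression and 3 wild type. The authors deposited gene counts without normalization. HISAT2 2.0.5, DESeq2, featureCounts 1.5.0-p3 and mm10 are named in the submitters' processing notes. No source used here gives the strand setting or annotation release, so reads of overlapping genes cannot be told apart. Counts were fitted with edgeR 4.0.16 in R 4.3.3 (quasi-likelihood test, TMM factors, filterByExpr, no covariate) over the whole table, Benjamini-Hochberg adjusted over 12651 genes and called under 0.05. CPM values use TMM-scaled library sizes. Exonic lengths and positions came from GENCODE M21 and promoters from RefSeq (GRCm38.p6). The members and lists were chosen with earlier results of these data known. Named were called members, members of at least 10 CPM, those at 0 in a group and at least 1 CPM in the other, Slc3a1, Slc3a2 and their light chains, and up to 4 called genes per list. Other genes were named after their values were seen. The lists were amino acid response, sensing and mTORC1, mitochondrial carriers, vesicular and other carriers, glutathione, glutamine and glutamate, sodium pump and cell type markers. Alternatives included DESeq2 1.42.0 and limma-voom (limma 3.58.1). Fits were tested on simulated data. Intervals and the floor of 3 counts cover counting error or library spread only. Some items are not reported here.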

Additional observations from a re-analysis of the deposited data

How the results depend on the processing

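Slc6a15 was called lower in every alternative run. The number of members called lower was 1, and 2 with no filter on low counts (with Slc7a11) or with both libraries numbered 2 left out (with Slc38a2), and none was called higher in any alternative. Over all genes, 429 were called, against 688 with no filter, 715 with DESeq2, 719 with the replicate block and 225 to 374 with each library left out in turn (225, 250 and 274 without labelled library 1, wild-type library 1 and labelled library 3). The labels state no batch, while libraries of both groups share numbers. The deviations of same-numbered libraries from their group means correlated at 0.028, 0.366 and 0.474, and those of the other pairs at -0.434 to 0.213. Whether same-numbered libraries share a batch was not tested. Under the replicate block 1 member was called lower and 0 higher. Log2 fold changes turned sign when libraries were left out in turn for Slc1a4 (-0.40 to 0.71), Slc1a5 (-1.07 to 0.18), Slc36a4 (-0.27 to 0.10), Slc38a7 (-0.98 to 0.0366), Slc38a9 (-0.28 to 0.19), Slc6a9 (-1.68 to 0.64), Slc7a1 (-1.46 to 0.41) and Slc7a5 (-1.54 to 0.31). Slc1a4 was also at 0.0888 with limma-voom and 0.0948 under the replicate block. With both libraries numbered 2 left out, the log2 fold changes were 0.40 for Slc1a4, 0.29 for Slc1a5, 0.0449 for Slc6a8, 0.58 for Slc6a9, 0.44 for Slc7a1, 0.49 for Slc7a5 and 0.14 for Slc7a7. The causes were not tested. Rragd, Gls2 and Slc22a4 lost their calls with all libraries thinned to the shallowest (edgeR adjusted p = 0.0624, 0.0768 and 0.0528). The amino acid response list had 0 called in the main fit, and 0 to 2 over the alternatives in total. With all libraries kept, 2 were called lower with no filter on low counts and 1 under the replicate block. Depth limits what can be said of carriers below 0.108 CPM in the labelled libraries.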
